A study of Mus musculus with 15 samples.

Results

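The mRNAs and tRNAs encoded by the mitochondrial genome were followed through the count table. They are every gene listed on chromosome M except the ribosomal RNA genes mt-Rnr1 and mt-Rnr2, that is, 35 of 55573 genes, made up of 13 protein-coding genes and 22 tRNA genes. Single genes were described where the mean over the samples was at least 10 counts, which left all 13 mRNAs and 5 of the 22 tRNAs. The samples were 15 trigeminal ganglia (TG), the ganglia that hold the sensory neurons of the cornea, in 3 groups of 5. All came from male CD1 mice aged 10 weeks, an outbred strain, whose right cornea had been injured by removal of the epithelium and the anterior stroma. The eyes then received vehicle, RvD6-standard or RvD6-isomer 3 times per day, and the TG of the injured side was taken on day 12. RvD6-standard is resolvin D6, a dihydroxy lipid made from docosahexaenoic acid, and RvD6-isomer is its stereoisomer, so that the lipids differ in the arrangement of their atoms in space and not in which atoms are bonded. No uninjured ganglion was analysed here, so every group carried the injury, and the cells of a whole ganglion were measured together.

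The mitochondrial genome is a small circle of DNA that is read from both strands into long precursor RNAs. The tRNAs lie between most of the mRNAs and rRNAs, and cutting out the tRNAs releases the mRNAs. The mRNAs encode core subunits of complexes I, III and IV of the respiratory chain and of the ATP synthase (complex V), whereas the remaining subunits and all proteins that copy, cut and protect mitochondrial RNA come from nuclear genes. In sensory neurons these complexes supply the ATP used for ion pumping and for transport along the axon.

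The tRNAs that could be described are printed as they stand in the GRCm38 transcripts of GENCODE release M21, on the strand of the gene, with the anticodon in capitals, since their length decides how a read can fall on them. Each lies in a single exon of a tRNA gene on chromosome M.
mt-Tf, phenylalanine, chrM:1-68, plus strand: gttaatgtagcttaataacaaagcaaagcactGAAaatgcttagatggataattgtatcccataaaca
mt-Tq, glutamine, chrM:3772-3842, minus strand: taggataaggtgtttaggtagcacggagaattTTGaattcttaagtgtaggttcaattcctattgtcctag
mt-Tm, methionine, chrM:3845-3913, plus strand: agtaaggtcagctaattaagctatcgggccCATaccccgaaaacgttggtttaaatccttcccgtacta
mt-Ts1, serine, chrM:6870-6938, minus strand: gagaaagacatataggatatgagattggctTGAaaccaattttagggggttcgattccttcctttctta
mt-Tp, proline, chrM:15356-15422, minus strand: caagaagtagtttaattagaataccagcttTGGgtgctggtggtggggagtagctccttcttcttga
They are 67 to 71 bases long, shorter than the 75 cycles of the sequencing kit, so that a full-length read on any of them reaches into the next gene or the non-coding region. The mRNA genes also touch each other. The stretch shared by mt-Atp8 and mt-Atp6 on the plus strand is shown because a read that covers it lies on both genes, with the start codon of mt-Atp6 in capitals.
mt-Atp8/mt-Atp6 overlap, chrM:7927-7969: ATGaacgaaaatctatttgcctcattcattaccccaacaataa
The overlap is 43 bases long, of the 204 bases of mt-Atp8.

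The table held 4125962 to 9903396 counts per sample, with a median of 7756538. No pair of samples of the same group agreed within counting noise, so all 15 were used. Markers of sensory neurons, satellite glia and myelinating Schwann cells were present in every sample, as a TG requires. Markers of skeletal muscle were also present, at 39.3 to 201 CPM (counts scaled to a common library total) summed over 12 genes in the vehicle and RvD6-isomer samples and at 132 to 3448 CPM in the RvD6-standard samples, with RvD6-standard replicates 8 and 9 at 2150 and 3448 CPM. Erythroid markers were at 5691 to 10484 CPM in the RvD6-standard samples against 2263 to 4960 CPM in the vehicle samples, and RvD6-isomer replicate 15 had 12817 CPM. Neutrophil precursor markers also differed, at 465 to 1600 CPM in the RvD6-standard samples, 76.3 to 409 CPM in the vehicle samples and 1286 CPM in RvD6-isomer replicate 15. Summed markers of sensory neurons were lower in every RvD6-standard sample (5788 to 9540 CPM) than in any vehicle sample (9973 to 10892 CPM), and so were those of satellite glia (6723 to 8117 against 8530 to 9859 CPM). Pituitary markers ranged from 10 to 3560 CPM within the vehicle group alone, with Lhb at 0 in every sample. A list of 5 nuclear RNAs such as Malat1 summed to 1537 to 2934 CPM in vehicle and 957 to 1468 CPM in RvD6-isomer, without overlap. The part of these lists in the results was not tested, except where a value for muscle is given.

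Between 2.74 and 5.13% of the counts of a ganglion fell on the mitochondrial mRNAs. The named markers of the module were abundant in all 15 ganglia, with 17993 to 68105 raw counts on mt-Nd1, a complex I subunit, and 25102 to 113679 on mt-Co1, the catalytic subunit of complex IV. The 22 tRNAs together held only 39 to 175 counts per sample. Compared per length, as reads per kilobase scaled to the library total (RPKM), mt-Nd1 (median 5807 RPKM over the 15 samples) and mt-Co1 (5265 RPKM) were at the top, and mt-Nd1 was above mt-Co1 in 8 of 15 samples, so the pair had no fixed order. They were followed by mt-Atp6 (5069 RPKM), mt-Co3 (3947 RPKM) and mt-Cytb (3903 RPKM), of which mt-Co3 was above mt-Cytb in 10 samples. From mt-Cytb downwards the order of the counts as deposited was steadier. mt-Nd4, mt-Nd5, mt-Co2 and mt-Nd2 each lay below the gene before them in all 15 samples. At the bottom were mt-Nd4l (226 RPKM), mt-Atp8 (183 RPKM) and mt-Nd3 (172 RPKM), the shortest of the mRNAs.

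**Figure D1:**
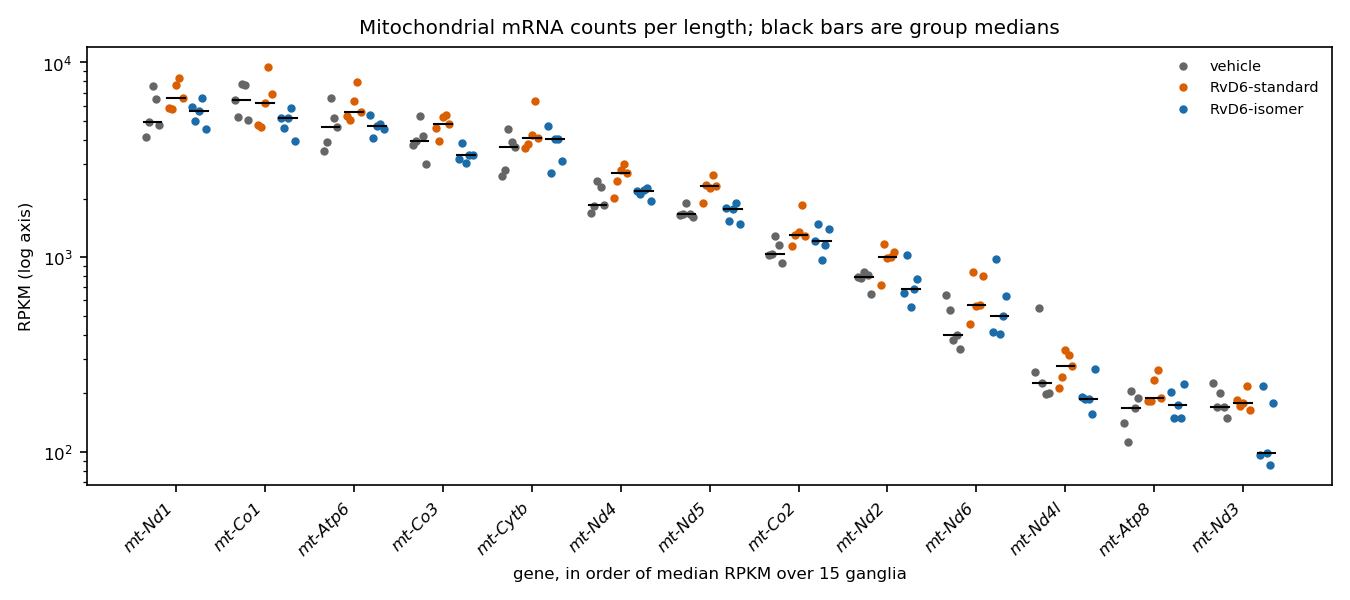
Levels of the 13 mitochondrial mRNAs per length (RPKM, log axis), 1 point per ganglion coloured by group, with the group medians as black bars. The medians over all samples run from 5807 RPKM for mt-Nd1 down to 172 RPKM for mt-Nd3, and for most genes the 3 groups overlap.

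These levels depend on how reads were shared between the mitochondrial genome and copies of it in the nuclear genome. Nuclear chromosomes carry old insertions of mitochondrial DNA, and a read that fits both places equally cannot be assigned by its sequence. Of the 13 mRNAs, 9 had at least 1 stretch of 75 bases that occurs unchanged in the transcript of an annotated nuclear gene, and 12 nuclear genes held such stretches. A run of 7 of them lies on the minus strand of chromosome 1 (GRCm38), between chr1:24611535-24612410, the copy of mt-Nd4 called Gm28439, and chr1:24615706-24616197, the partial copy of mt-Co1 called Gm29216. The copies of mt-Co2 (Gm28661), mt-Atp6 (Gm10925), mt-Co3 (Gm28437) and mt-Nd4l (Gm10222) in this run are identical to the mitochondrial gene over every aligned base. The copy of mt-Nd3, Gm28438, differs in 1 base, T3C, with positions counted from the first base of mt-Nd3. Both starts are printed because this is the only difference over the 345 aligned bases, and it is in capitals.
mt-Nd3, chrM:9459-9498, plus strand: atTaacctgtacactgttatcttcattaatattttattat
Gm28438, start of the transcript on chromosome 1: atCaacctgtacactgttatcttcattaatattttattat

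Despite the identity, both members of each pair had counts, so the reads of these genes were split between the places. Of the counts on mt-Co3 and its copy together, 48.1 to 51.3% were on the copy. For mt-Atp6 the copy held 43.3 to 46.2%, for mt-Co2 the copies held 51.5 to 53.8%, and for mt-Nd3 50 to 58.3%. The shares were narrow for mt-Co3, mt-Atp6 and mt-Co2, with no sample far from the others. For mt-Nd3 the range was wider, and 4 of 5 RvD6-standard samples were above all vehicle samples (51.9 to 54.7%). The gene mt-Nd4l was furthest from an even split, since 78.2 to 94.0% of the counts on it and its copy were on the copy. The 78.2% was that of vehicle replicate 2. In contrast, mt-Nd1, mt-Nd6, mt-Cytb and mt-Atp8 shared no such stretch with an annotated transcript, although nuclear sequence outside annotated transcripts was not searched. When the counts of the copies were added back, the median level of mt-Atp6 was 9090 RPKM and that of mt-Co3 7879 RPKM, both above mt-Co1 with 6465 RPKM and mt-Nd1 with 5807 RPKM. The level of mt-Nd4l became 2739 RPKM in place of 226 RPKM. Lower down, mt-Co2 had 2577 RPKM, above mt-Nd5 with 1816 RPKM, and mt-Nd3 had 391 RPKM, above mt-Atp8 with 183 RPKM. The order of the upper and the lower genes and the low level of mt-Nd4l therefore changed with this choice.

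**Figure D2:**
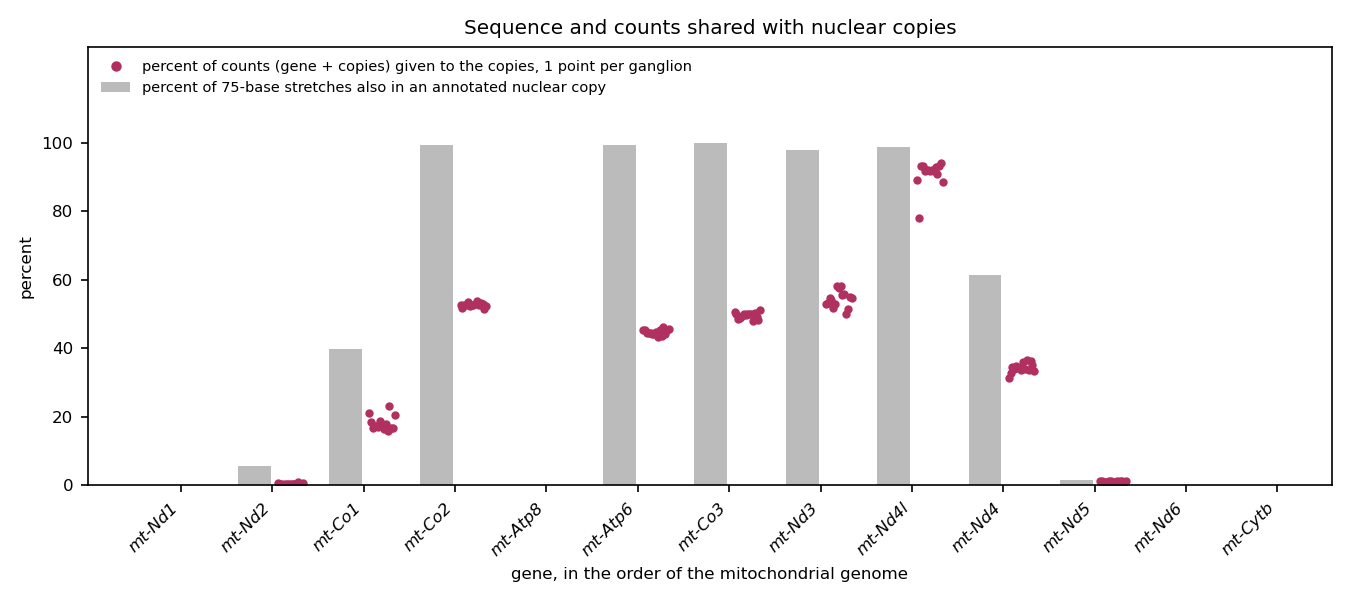
For each mitochondrial mRNA, in the order of the genome, the grey bar is the percent of its 75-base stretches that also occur in an annotated nuclear transcript, and the points are the percent of the counts on gene plus copies that the copies received, 1 point per ganglion. Genes that are almost fully shared lie near an even split (mt-Co3, 48.1 to 51.3%), except mt-Nd4l (78.2 to 94.0%).

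RvD6-standard was first compared with vehicle, to ask how the ganglion changed with resolvin D6 itself. No mitochondrial mRNA or tRNA passed the threshold, an adjusted p below 0.05 in the quasi-likelihood test of edgeR over 16567 genes, and neither did any other gene (0% called). At an unadjusted p under 0.05, 2256 genes were past the test, 7.63% of all genes in the higher and 5.99% in the lower direction. Of the 13 mRNAs, 4 were higher at this level (mt-Nd2, mt-Co2, mt-Nd4 and mt-Nd5) and none was lower. The count was 0 with each sample's trend on GC content removed, 1 (mt-Nd5) with the muscle score as a covariate, 2 without RvD6-standard replicates 8 and 9, 10 with the length trend removed, and 2 to 9 when a sample was left out (9 without vehicle replicate 3). DESeq2, the tool of the study, called 369 genes (1.92%) and 1 of the mRNAs, mt-Nd5. The median log2 fold change of the 13 mRNAs was 0.33 beside 0.02 for all genes, and 10 of 13 were above 0, beside 52.2% of all genes (47.8% were below). With RvD6-standard replicates 8 and 9 left out the median was 0.12, with the muscle marker score as a covariate 0.07 and with the GC trend removed 0.05.  The groups of this pair also did not overlap in the erythroid, neutrophil precursor, sensory neuron and satellite glia sums given above. Their part in these estimates was not tested. In bulk tissue, fewer cells of a type and less RNA per cell cannot be told apart.

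RvD6-isomer was then compared with vehicle, to ask the same of the stereoisomer. edgeR called 111 genes (0.670%) and no mitochondrial mRNA or tRNA among them. At an unadjusted p under 0.05, 4 of 13 mRNAs were lower (mt-Co1, mt-Co3, mt-Nd3 and mt-Nd4l), beside 7.30% of all genes, and none was higher, beside 8.69%. The count was 5 with the GC trend removed (these 4 and mt-Nd5), 2 with the muscle score (mt-Co3 and mt-Nd4l) and 1 without vehicle replicate 3. With the length trend removed, none of these 4 mRNAs was past that level. Instead mt-Co2 (log2 fold change 0.37, unadjusted p = 0.019, edgeR) and mt-Nd6 (0.52, unadjusted p = 0.042, edgeR) were higher in that fit. DESeq2 called 920 genes (8.13%) and no mitochondrial mRNA. The median log2 fold change of the mRNAs was -0.10 beside 0.02 for all genes, with 3 above and 10 below 0, beside 48.8% of all genes below. The median was 0.15 when each sample's trend on gene length was removed and 0.06 without vehicle replicate 3, so its sign was not stable. With the GC trend removed the median was -0.25, with 12 of 13 mRNAs below 0.

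The lipids were compared with each other last, which makes 3 pairs of groups in all. Each pair shares a group with the others, so the 3 sets of differences are not independent. RvD6-isomer had lower estimates than RvD6-standard for all 13 mRNAs, where 50.5% of all genes were lower, and the median log2 fold change was -0.43 beside -0.00 for all genes. The 13 mRNAs are not independent results, as many of them were high in the same samples. Vehicle replicate 3 was the highest of its group for 10 mRNAs and RvD6-standard replicate 9 for 9. edgeR called 39 genes (0.235%) and none of the members. At an unadjusted p under 0.05, 9 of 13 mRNAs were lower, beside 4.64% of all genes, and none was higher, beside 4.18%. This count was 1 (mt-Nd5) with the muscle score as a covariate, 3 without RvD6-standard replicates 8 and 9 and 4 without replicate 9 alone. It was 4 with the length trend removed and 6 with the GC trend removed. For 2 mRNAs, mt-Nd5 and mt-Co3, every RvD6-isomer sample was below every RvD6-standard sample, beside 1.09% of all genes, and DESeq2 called these mRNAs, with 185 genes in all (0.936%). With the muscle score as a covariate the median was -0.14 and 10 of 13 estimates were below 0, and without RvD6-standard replicates 8 and 9 it was -0.23 with all 13 below 0.

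**Figure D3:**
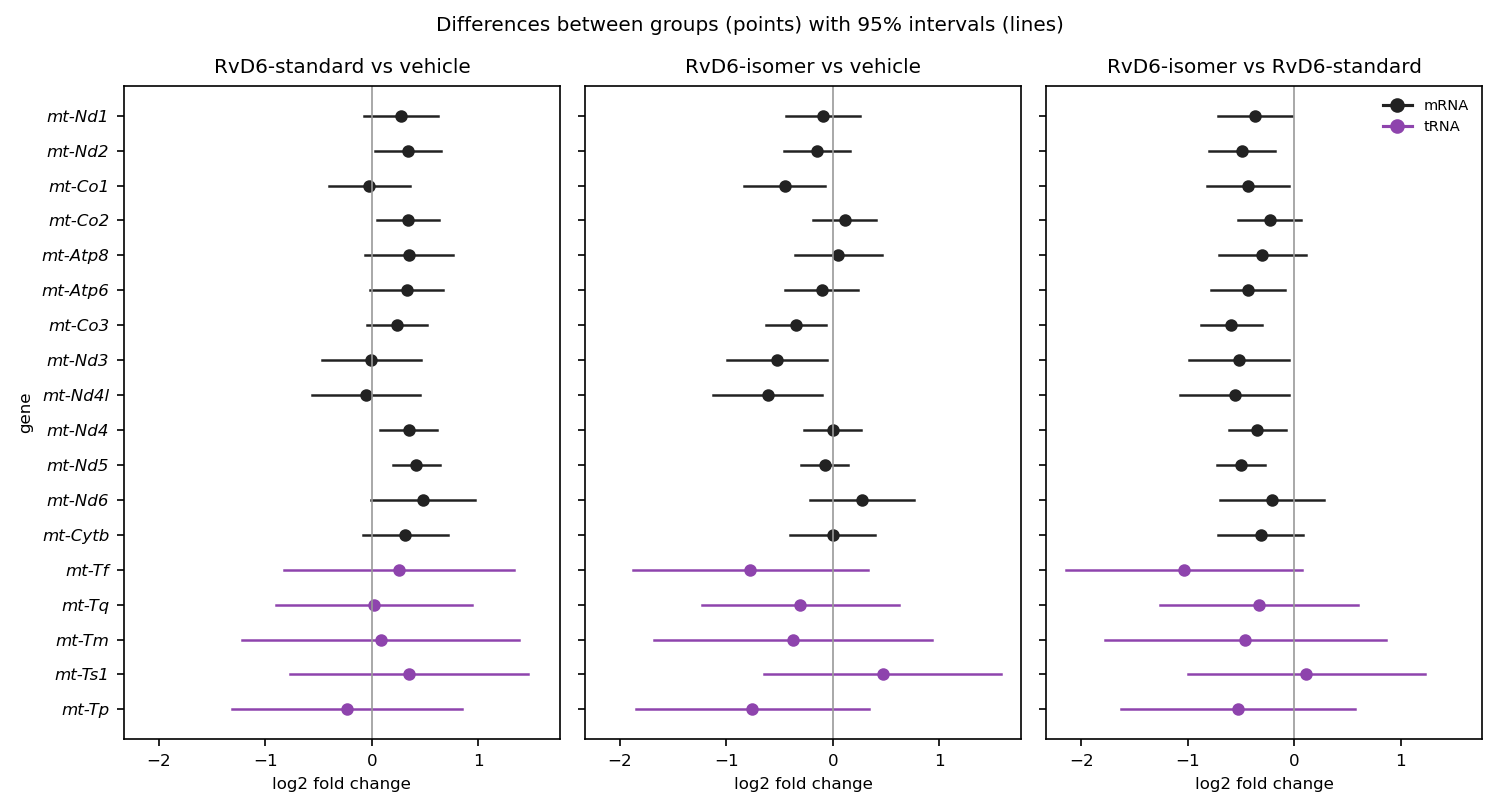
Log2 fold changes (points) with 95% intervals (lines) of the 13 mitochondrial mRNAs and the 5 tRNAs with at least 10 counts on average, for the 3 pairs of groups. All 13 mRNA points of RvD6-isomer against RvD6-standard are left of 0, from -0.59 for mt-Co3 to -0.20 for mt-Nd6, while the intervals of the tRNAs are wider and include 0 in each pair.

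Among the subunits of complex I, which takes electrons from NADH and pumps protons, mt-Nd5 had the lowest p-values in the pairs that involve RvD6-standard. This membrane subunit had 21456, 21994, 26127, 22243 and 22165 normalized counts in the vehicle samples, 26041, 30842, 31035, 35013 and 30953 in the RvD6-standard samples and 22966, 19617, 22870, 24575 and 18171 in the RvD6-isomer samples. The RvD6-standard samples were all above the RvD6-isomer samples, and 4 of 5 were above all vehicle samples. For RvD6-isomer against RvD6-standard the log2 fold change was -0.50 (95% interval -0.72 to -0.28, adjusted p = 0.0603, edgeR), and DESeq2 gave an adjusted p of 0.0017. For RvD6-standard against vehicle it was 0.42 (0.20 to 0.64, adjusted p = 0.129, edgeR), with an adjusted p of 0.015 in DESeq2. RvD6-isomer and vehicle differed by -0.08 (-0.30 to 0.14). With the muscle score as a covariate, the estimates were -0.43 for RvD6-isomer against RvD6-standard and 0.36 for RvD6-standard against vehicle (adjusted p = 0.751 and 0.639, edgeR). With the GC trend removed they were -0.42 and 0.18 (adjusted p = 0.143 and 0.501, edgeR). Only 1.66% of its 75-base stretches occur in a nuclear copy, so this gene was little touched by shared reads.

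The other subunits of complex I were less clear. mt-Nd1, which sits where the arms of the complex meet, had 39464 ± 10529 normalized counts in vehicle, 48111 ± 7986 in RvD6-standard and 37024 ± 5845 in RvD6-isomer (mean ± SD, n = 5 each), and the groups overlapped in every pair. Its log2 fold change was 0.27 (95% interval -0.07 to 0.62) for RvD6-standard against vehicle and -0.37 (-0.72 to -0.02, adjusted p = 0.524, edgeR) for RvD6-isomer against RvD6-standard. mt-Nd2, a proton-pumping subunit, had 5654 to 8765 normalized counts with RvD6-standard, 5070 to 6588 with vehicle and 4085 to 7469 with RvD6-isomer. It was 0.34 higher (log2, 0.03 to 0.65, adjusted p = 0.329, edgeR) with RvD6-standard than with vehicle and -0.49 (-0.80 to -0.18, adjusted p = 0.273, edgeR) with RvD6-isomer than with RvD6-standard. mt-Nd4, another pumping subunit, had 20626 ± 3772, 26447 ± 3760 and 20676 ± 1617 normalized counts in vehicle, RvD6-standard and RvD6-isomer. The difference of mt-Nd4 between RvD6-isomer and vehicle was -0.00 on the log2 scale, with a 95% interval of -0.27 to 0.27.

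The remaining complex I genes were mt-Nd6, mt-Nd3 and mt-Nd4l. mt-Nd6, a membrane subunit and the only mRNA gene on the minus strand, had 1314 to 2384 normalized counts in vehicle, 1772 to 3155 in RvD6-standard and 1491 to 3550 in RvD6-isomer, where replicate 12 held the 3550. Counts were made without regard to strand, so RNA made from the opposite strand of mt-Nd6 cannot be told apart from its mRNA. mt-Nd3, a small subunit, had 561, 429, 530, 435 and 392 normalized counts in vehicle, 485, 434, 467, 555 and 419 in RvD6-standard and 236, 534, 243, 211 and 414 in RvD6-isomer. In RvD6-isomer, replicates 11, 13 and 14 were below all samples of the other groups, while replicate 12 lay within both ranges and replicate 15, with 414, within that of vehicle. The log2 fold change of mt-Nd3 against vehicle was -0.53 (-0.99 to -0.06, adjusted p = 0.253, edgeR). mt-Nd4l, also small, had 1172 normalized counts in vehicle replicate 2 and 330 to 738 in the other 14 samples. Its log2 fold change of -0.61 (-1.12 to -0.10) between RvD6-isomer and vehicle became -0.20 when the counts of its nuclear copy were added. Between the lipids the estimate was -0.56 without and -0.52 with the copy (adjusted p = 0.207 with it, edgeR). The summed counts there did not overlap, at 4367 to 5760 in RvD6-isomer and 6150 to 8986 in RvD6-standard. For RvD6-standard against vehicle, -0.06 became 0.32 (adjusted p = 0.333, edgeR).

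**Figure D4:**
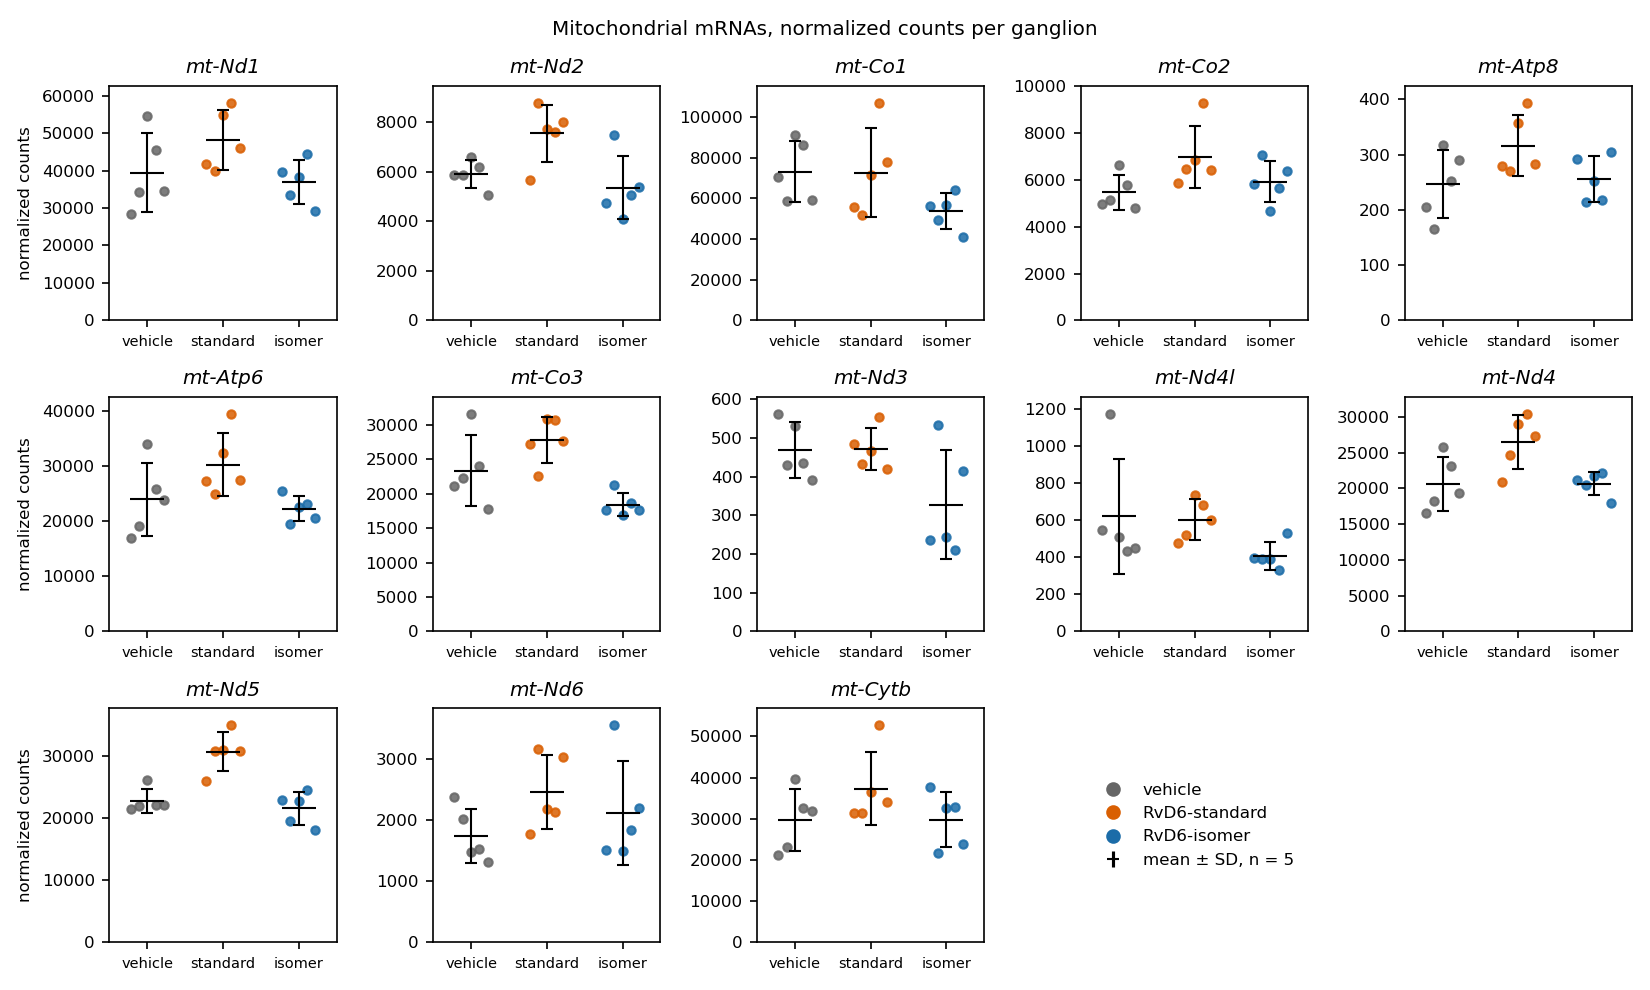
Normalized counts (scaled by DESeq2 size factors) of the 13 mitochondrial mRNAs in the vehicle, RvD6-standard and RvD6-isomer ganglia, 1 point per ganglion, with mean ± SD (n = 5) in black and each axis starting at 0. For mt-Nd5 and mt-Co3 all RvD6-isomer points lie below all RvD6-standard points, and for the other 11 genes these groups overlap.

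mt-Cytb encodes cytochrome b, the only subunit of complex III made in mitochondria, and it shares no searched stretch with the nucleus. It had 29704 ± 7534 normalized counts in vehicle, 37232 ± 8859 in RvD6-standard and 29770 ± 6742 in RvD6-isomer (mean ± SD, n = 5 each). RvD6-standard replicate 9 had 52646, well above the next sample of its group with 36413. The log2 fold change was -0.00 (-0.40 to 0.40) for RvD6-isomer against vehicle, 0.31 (-0.09 to 0.71) for RvD6-standard against vehicle and -0.31 (-0.71 to 0.09) between the lipids, none past the threshold.

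Complex IV, cytochrome c oxidase, hands the electrons to oxygen. mt-Co3, a core subunit, had 21143, 22304, 31541, 24107 and 17781 normalized counts in vehicle, 27203, 22530, 30938, 30692 and 27736 in RvD6-standard and 17614, 21213, 16932, 18660 and 17651 in RvD6-isomer. The highest RvD6-isomer sample was below the lowest RvD6-standard sample, and 3 RvD6-isomer samples were below all vehicle samples. Between the lipids the log2 fold change was -0.59 (95% interval -0.87 to -0.31, adjusted p = 0.0933, edgeR), DESeq2 gave an adjusted p of 0.0086, and with the nuclear copy added the estimate was again -0.59 (adjusted p = 0.075, edgeR). With edgeR mt-Co3 passed the threshold in 2 of 15 fits that left out a sample, those without vehicle replicate 3 and without RvD6-standard replicate 7. With the muscle score as a covariate its estimate was -0.38 (unadjusted p = 0.14).

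mt-Co1, which carries the catalytic centre, had 70611, 58633, 91215, 86323 and 59001 normalized counts in vehicle and 56450, 49572, 56729, 64279 and 40803 in RvD6-isomer, with 4 of 5 RvD6-isomer samples below all vehicle samples. The log2 fold change was -0.45 (-0.84 to -0.07, adjusted p = 0.226, edgeR). The RvD6-standard samples spread from 51860 to 106710, with 106710 in replicate 9, and their mean differed from that of vehicle by -0.02 (-0.41 to 0.36, log2). Within the mitochondrial mRNAs, mt-Co1 took 26.7 to 33.5% of the counts in vehicle and 22.2 to 26.4% in RvD6-isomer, without overlap, and 21.1 to 28.6% in RvD6-standard. The share of mt-Nd4 also did not overlap in that pair but went the other way, at 7.86 to 8.75% in vehicle and 9.01 to 9.99% in RvD6-isomer. Shares of a fixed total depend on each other, and these were not tested. mt-Co2, which receives electrons from cytochrome c, had a log2 fold change of 0.34 (0.04 to 0.63, adjusted p = 0.307, edgeR) for RvD6-standard against vehicle, 0.11 (-0.19 to 0.40) for RvD6-isomer against vehicle and -0.23 (-0.52 to 0.07) between the lipids.

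The ATP synthase genes, mt-Atp6 for the subunit of the proton channel and mt-Atp8 for a small accessory subunit, overlap and differed widely in level. mt-Atp6 had 17005 to 34088 normalized counts in vehicle, 24977 to 39469 in RvD6-standard and 19546 to 25560 in RvD6-isomer, and mt-Atp8 had 165 to 318, 270 to 393 and 214 to 306. In both genes the RvD6-standard range reached highest and the groups overlapped. Between the lipids the log2 fold change was -0.43 (-0.78 to -0.09, adjusted p = 0.423, edgeR) for mt-Atp6 and -0.30 (-0.71 to 0.12, adjusted p = 0.713, edgeR) for mt-Atp8. By complexes, 35.9 to 44.0% of the mitochondrial mRNA counts of a sample were on complex I, 10.1 to 16.1% on complex III, 32.9 to 45.9% on complex IV and 8.16 to 11.4% on complex V, and the groups overlapped in each of these shares. The shares leave out the counts on the nuclear copies, so they depend on how reads were placed. The copy of mt-Atp6 held 43.3 to 46.2% of the summed counts, while no copy of mt-Cytb was found.

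Summed over the 13 mRNAs, the share of counts was 2.95, 2.95, 4.21, 3.76 and 2.93% in vehicle, 3.26, 3.40, 4.07, 5.13 and 3.98% in RvD6-standard and 3.34, 2.93, 3.15, 3.43 and 2.74% in RvD6-isomer. One RvD6-standard sample, replicate 9, was above all vehicle samples, and 3 RvD6-isomer samples were below all RvD6-standard samples. The ratio of group means was 1.18 for RvD6-standard to vehicle, 0.927 for RvD6-isomer to vehicle and 0.785 for RvD6-isomer to RvD6-standard. Without RvD6-standard replicates 8 and 9 the ratios that involve RvD6-standard were 1.05 and 0.879. These replicates had the most muscle RNA, and replicate 9 had the highest normalized count of all 15 samples for 8 of 13 mRNAs. All 5 RvD6-standard samples had more muscle marker RNA than any RvD6-isomer sample, and 8 of 12 muscle markers were called lower in RvD6-isomer than in RvD6-standard, so muscle content and the lipid cannot be fully told apart in that pair. Vehicle replicate 3, with 4.21%, had a muscle sum of 48.4 CPM, near the lowest. The same sample had the highest pituitary marker sum of all samples, 3560 CPM.

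**Figure D5:**
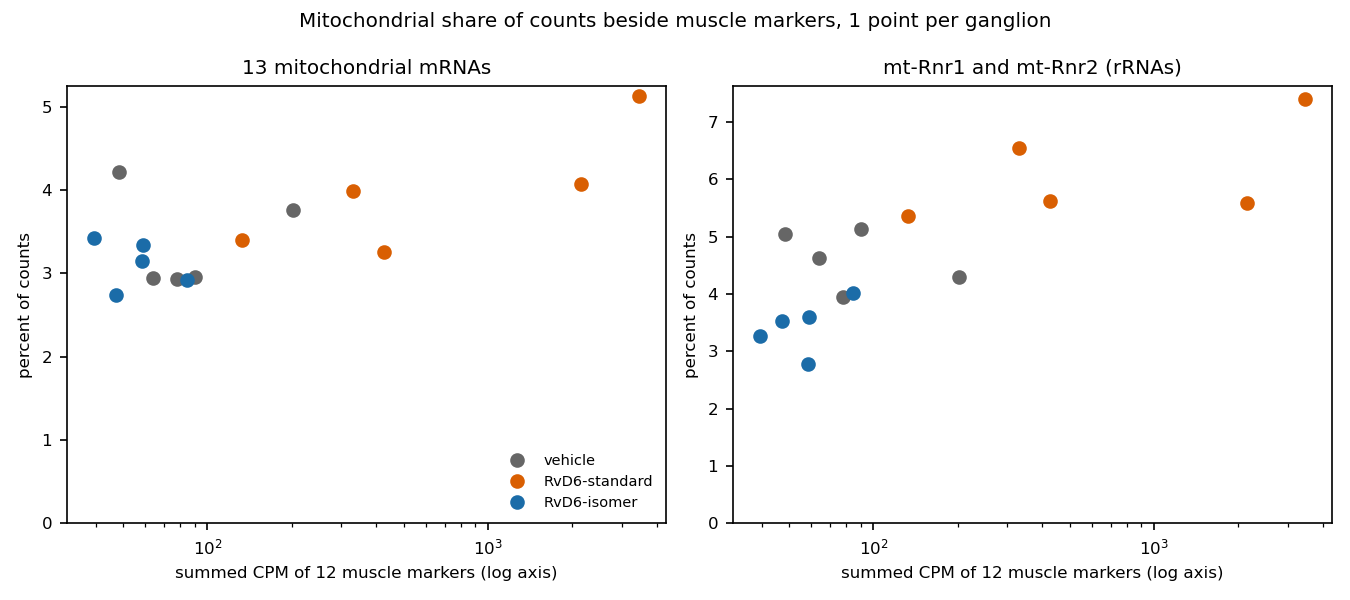
Percent of counts on the 13 mitochondrial mRNAs (left) and on mt-Rnr1 and mt-Rnr2 (right) against the summed CPM of 12 skeletal muscle markers (log axis), 1 point per ganglion. RvD6-standard samples lie to the right of all RvD6-isomer samples, the mRNA shares of the 3 groups overlap, and the rRNA shares of RvD6-standard (5.36 to 7.40%) lie above those of the other groups.

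The rRNAs of the same genome were left out of the module and are given for comparison. mt-Rnr2, the large rRNA, had 296190 ± 28760 normalized counts in vehicle, 394903 ± 54416 in RvD6-standard and 213227 ± 24019 in RvD6-isomer (mean ± SD, n = 5 each), and no pair of groups overlapped. It was lower in RvD6-isomer than in vehicle (log2 fold change -0.48, adjusted p = 0.0364, edgeR) and than in RvD6-standard (-0.88, adjusted p = 0.00126, edgeR). mt-Rnr1, the small rRNA, was lower in RvD6-isomer than in RvD6-standard (-1.02, adjusted p = 0.0392, edgeR). With the muscle score as a covariate none of these calls was kept. The estimates for mt-Rnr2 were then -0.45 against vehicle (adjusted p = 0.062, edgeR) and -0.73 between the lipids (adjusted p = 0.571, edgeR). For mt-Rnr1 between the lipids the estimate was -0.92 (adjusted p = 0.695, edgeR). In that fit edgeR called 2 genes in all between the lipids. In 15 fits that each left out a sample, mt-Rnr2 was called in 6 against vehicle and in 15 between the lipids, and mt-Rnr1 in 8 between the lipids. With the length trend removed, mt-Rnr2 against vehicle had an adjusted p of 0.29 and mt-Rnr1 between the lipids 0.0864 (edgeR). With the GC trend removed, mt-Rnr1 between the lipids had 0.083 and mt-Rnr2 against vehicle 0.0071 (edgeR). Between the lipids mt-Rnr2 stayed called with either trend removed, with an adjusted p of 0.020 (length) and 0.00105 (GC, edgeR). For every 100 counts on the rRNAs there were 57.6 to 87.3 counts on the mitochondrial mRNAs in vehicle, 57.9 to 72.9 in RvD6-standard and 72.8 to 114 in RvD6-isomer, where 4 of 5 samples were above all RvD6-standard samples. The difference between the mRNAs and the rRNAs was not tested.

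Counts on the tRNAs, which carry amino acids to the mitochondrial ribosome, were near the limit of detection. The cDNA was made from poly(A) tails and strand was not used. Mature tRNA therefore cannot be told apart here from precursor RNA or from RNA of the opposite strand. Of the described tRNAs, 3 (mt-Tq, mt-Ts1 and mt-Tp) are on the minus strand. Of the 35 members, 19 passed the filter of edgeR on low counts, of which 6 were tRNAs, and 17 tRNAs had a mean under 10 counts. The threshold fell between mt-Tm, with a mean of 11.4 counts, and mt-Tl1, with 9.8. No read was counted on mt-Ty, mt-Td, mt-Th and mt-Ts2 in any sample, which allows up to 3 counts in a library, or 3.03e-05 to 7.27e-05% of its counts. The highest mean was that of mt-Tq, with 21.2 counts. mt-Tq had 16.9 to 29.7 normalized counts in vehicle, 10.1 to 35.9 in RvD6-standard and 14.6 to 25.9 in RvD6-isomer, and mt-Tp had 10.7 to 31.7, 8.60 to 30.8 and 7.30 to 16.6. Neither separated the groups.

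Of the 5 tRNAs, mt-Tf had the largest difference. It had 15.1, 12.5, 19.3, 6.89 and 9.05 normalized counts in vehicle, 14.9, 18, 11.2, 13.6 and 18.1 in RvD6-standard and 6.78, 4.79, 10, 11.4 and 3.25 in RvD6-isomer. All RvD6-isomer samples but replicate 14, with 11.4, were below the lowest RvD6-standard sample, with 11.2. The log2 fold change between the lipids was -1.03 (95% interval -2.14 to 0.08, adjusted p = 0.602, edgeR). For the other tRNAs the intervals in that pair ran from -1.26 to 0.60 for mt-Tq, -1.77 to 0.86 for mt-Tm, -1 to 1.23 for mt-Ts1 and -1.63 to 0.57 for mt-Tp. Each of these intervals included 0, so no difference in these tRNAs was detectable at this depth. As a share of all counts the 22 tRNAs had 0.000852 to 0.00185% in vehicle, 0.000956 to 0.00203% in RvD6-standard and 0.000928 to 0.00138% in RvD6-isomer, and the groups overlapped in every pair.

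Nuclear genes that work with these RNAs were counted by lists. Of 57 listed factors for transcription, maintenance, processing and regulation of mitochondrial RNA and DNA, 53 were tested, and edgeR called none in any pair. At an unadjusted p under 0.05, 5 were higher and 5 lower in RvD6-isomer than in vehicle, beside 8.69 and 7.30% of all genes. In RvD6-standard 2 were higher and 4 lower than in vehicle, beside 7.63 and 5.99%, and in RvD6-isomer 4 were higher and 1 lower than in RvD6-standard, beside 4.18 and 4.64%. The median log2 fold changes were 0.00, -0.04 and -0.00, near those of all genes. For RvD6-isomer against vehicle, Pnpt1, a polynucleotide phosphorylase that degrades mitochondrial RNA, had 193 ± 87.0 normalized counts against 84.4 ± 30.8 (log2 fold change 1.19, adjusted p = 0.112, edgeR). Fastkd5, which takes part in the processing of mitochondrial mRNA ends, had 66.9 ± 46.0 against 27.5 ± 5.29 (1.28, adjusted p = 0.117, edgeR). Trmt61b, which methylates mitochondrial tRNA, had 15.6 ± 6.35 against 51.2 ± 32.8 (-1.72, adjusted p = 0.0971, edgeR), and Polg2, the accessory subunit of the mitochondrial DNA polymerase, 36.1 ± 12.9 against 73.6 ± 23.4 (-1.03, adjusted p = 0.109, edgeR). Pnpt1, Fastkd5 and Trmt61b were also those named between the lipids, with log2 fold changes of 0.97, 0.88 and -1.51. For RvD6-standard against vehicle, the factors with the highest estimates at that level were Tbrg4 (0.88) and Mterf3 (0.65), and those with the lowest were Top1mt, a mitochondrial DNA topoisomerase (-0.78), and Polrmt, the mitochondrial RNA polymerase (-0.74), with adjusted p-values of 0.223 to 0.329 (edgeR).

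Nuclear subunits of the complexes were counted in the same way. Of 73 listed subunits of complexes I, III, IV and V, 72 were tested and edgeR called none in any pair. For RvD6-isomer against vehicle, 69 of 72 were below 0 (median log2 fold change -0.38), beside 48.8% of all genes, and 39 were lower at an unadjusted p under 0.05, beside 7.30% of all genes, while the mitochondrial mRNAs had a median of -0.10. For RvD6-standard against vehicle, 69 of 72 were below 0 again (median -0.26), beside 47.8% of all genes, and 10 of 13 mitochondrial mRNAs were above 0. At an unadjusted p under 0.05, 14 of the nuclear subunits were lower in this pair, beside 5.99% of all genes. Between the lipids 55 of 72 were below 0, beside 50.5% of all genes, with a median of -0.13 beside -0.43 for the mitochondrial mRNAs. The difference between the nuclear and the mitochondrial subunits was not tested. The nuclear lists were not counted again with the length trend, the GC trend or the muscle score taken into account. For RvD6-isomer against vehicle, removal of the length trend moved the median of the mitochondrial mRNAs from -0.10 to 0.15. Removal of the GC trend moved it to -0.25. Ndufb9, a nuclear complex I subunit, was the only one at an unadjusted p under 0.05 between the lipids, with 996 ± 205 normalized counts in RvD6-isomer and 1289 ± 73.4 in RvD6-standard (log2 fold change -0.36 ± 0.14 SE, adjusted p = 0.428, edgeR).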

How the data were processed

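The deposited table holds raw counts per gene for 15 samples. The authors made cDNA from poly(A) tails (Smart-seq2), aligned the reads with Rsubread to GRCm38 with GENCODE release M22 and counted them with featureCounts. The submitters' notes give Subread 1.6.5 and the file header gives 1.5.0-p1. How reads with several alignments were treated is not given in the sources used here, and strand was not used. Symbols and transcript sequences came from GENCODE release M21, which names 99.7% of the identifiers and lists all 37 genes of chromosome M at the same coordinates. The table also gives gene lengths, used for RPKM.

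Samples were grouped by their labels. The labels do not say whether each sample is a separate mouse, nor give batches, so p-values measure the spread between these samples, which may be in part technical. The members, the gene lists and the tests were chosen with earlier results of these data known. Named genes are all 13 mitochondrial mRNAs, tRNAs with a mean of at least 10 counts, the mitochondrial rRNAs, nuclear copies found by exact 75-base matches, and from the nuclear lists the called genes and, per pair, up to 2 highest and 2 lowest log2 fold changes at an unadjusted p under 0.05.

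The quasi-likelihood test of edgeR 4.0.16 (R 4.3.3, limma 3.58.1) was fitted to all 15 samples with TMM normalization and its filter (minimum count 10, minimum total 15), which kept 16567 genes, and adjusted p-values (Benjamini-Hochberg) under 0.05 were called. Size factors of DESeq2 1.42.0 gave the normalized counts. The edgeR steps were tested on simulated data. Alternatives were DESeq2, 2 groups only, RLE scaling, scaling from nuclear genes, no filter, at least 10 counts in every sample, removal of a length trend (lowess, span 0.3), nuclear copies added, a muscle score (mean log2 CPM of 12 markers, prior count 2) as covariate and each sample left out. A trend on the GC content of transcripts and the omission of the 2 samples with the most muscle RNA were added after the data had been seen. Depth was 4125962 to 9903396 counts, and pairs of replicates differed by 11.3 to 49.2 times counting noise, so the spread between samples set the precision. Floors cover counting error only. Python 3.11.15, pandas 2.3.3, NumPy 2.4.6 and matplotlib 3.10.9 were used.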

Additional observations from a re-analysis of the deposited data

Results flagged for a closer look

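In 60 groups of 5 samples, a single sample stood far from the other four in 6 cases, where chance gives about 1 in 20 groups. Vehicle replicate 2 had 1172 normalized counts of mt-Nd4l, next to 545 in the sample below it. Vehicle replicate 3 had 26127 of mt-Nd5, next to 22243, and RvD6-standard replicate 9 had 52646 of mt-Cytb, next to 36413. Among the tRNAs, RvD6-isomer replicate 14 had 25.9 of mt-Tq (next 17.3), RvD6-isomer replicate 12 had 29.6 of mt-Ts1 (next 14.5), and RvD6-standard replicate 6 had only 4.69 of mt-Tm (next 12.4).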

How the results depend on the processing

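No paired analysis was possible because the replicate numbers of the 3 groups are all different. All genes called moved most: 111 for RvD6-isomer against vehicle became 920 with DESeq2, 315 with at least 10 counts in every sample, 63 with the length trend removed, and 0 (without RvD6-isomer replicate 11) to 229 (without RvD6-standard replicate 9) when a sample was left out. For RvD6-standard against vehicle, 0 became 369 (DESeq2), 38 (2 groups only), 56 (no filter), 24 (at least 10 counts in every sample), 2 (muscle score) and 0 to 51 (without RvD6-isomer replicate 15). For RvD6-isomer against RvD6-standard, 39 became 185 (DESeq2), 17 (2 groups only), 59 (no filter), 23 (at least 10 counts in every sample), 2 (muscle score, and also without RvD6-standard replicates 8 and 9) and 2 (without RvD6-isomer replicate 11) to 156 (without RvD6-isomer replicate 15).

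Members called stayed at 0 for RvD6-isomer against vehicle in every alternative (0 to 0 with a sample left out). DESeq2 called 1 for RvD6-standard against vehicle (0 to 0 with a sample left out) and 2 between the lipids (0 to 1 with a sample left out). The median log2 fold change of the mRNAs ran from -0.16 to 0.06 with a sample left out for RvD6-isomer against vehicle. It was 0.15 with the length trend removed and -0.25 with the GC trend removed. For RvD6-standard against vehicle it ran from 0.20 (without RvD6-standard replicate 9) to 0.42 (without vehicle replicate 3) and was 0.05 with the GC trend removed, 0.07 with the muscle score and 0.12 without RvD6-standard replicates 8 and 9. Between the lipids it ran from -0.46 to -0.29 and was -0.14 with the muscle score and -0.23 without these replicates. The cause was not tested. With a sample left out, the ratio of mean mRNA shares ran from 0.898 to 0.990 (RvD6-isomer to vehicle), 1.09 to 1.26 (RvD6-standard to vehicle) and 0.752 to 0.847 (RvD6-isomer to RvD6-standard), and that of tRNA shares from 0.785 to 0.949, 0.973 to 1.2 and 0.730 to 0.880. For single members, 1292 of 1389 values under an alternative moved by less than 1 SE and 5 passed the threshold anew, all for mt-Co3 or mt-Nd5. The sign differed in 89 values, none of them called, over 23 of 54 combinations of member and pair. Adding nuclear copies to tRNA counts was not run, since no tRNA is as long as the window except mt-Tl1, which shares none. The 39 to 175 tRNA counts per sample limit what could be seen for the tRNAs.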
